A study of Homo sapiens with 12 samples.

Results

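The SREBP pathway in SW1783 cells is described here through 35 genes for cholesterol and fatty acid synthesis, out of 60675 gene identifiers in the deposited table. The members were listed by role: 19 enzymes of sterol synthesis, 5 genes of SREBP control, 3 of sterol uptake and transport, 2 of sterol efflux and 6 of fatty acid synthesis. Each symbol matched 1 Ensembl identifier, and all 35 had counts. SW1783 is an established human astrocytoma line and stands for 1 tumour line in culture, kept in medium with serum. RNA was sequenced from 4 groups of 3 libraries, all of them collected after 24 h. The vehicle group received PBS with 2% DMSO, which was also the solvent of the extract. The 2% describes the solution added, not the culture medium. The other groups were dosed with ACD, an extract made in water from the root of Aconitum carmichaeli Debeaux, at 20 (low), 100 (medium) or 500 µg/mL (high). The treatment text in the sample labels describes Poria cocos, whereas the titles and the treatment labels name ACD, and the groups follow the latter.

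Cells hold their sterol content steady by feedback. When sterol in the endoplasmic reticulum is low, SCAP carries the membrane-bound SREBP proteins (from SREBF1 and SREBF2) to the Golgi, where proteases release their transcription factor part. When sterol is high, the INSIG proteins keep SCAP and SREBP in the endoplasmic reticulum. Released SREBP2 mainly drives sterol synthesis genes and released SREBP1 mainly drives fatty acid genes. Liver X receptors (LXR) answer to oxysterols and are known to induce the efflux transporters ABCA1 and ABCG1, MYLIP, and SREBF1 itself. In brain, astrocytes are known as a main source of cholesterol.

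Library totals lay between 18863852 and 24200565 counts. Of 10 astrocyte or glioma markers, 7 had over 3 counts in some library. GFAP, S100B, ALDH1L1, AQP4 and FABP7, which define mature astrocytes or their precursors, were at or near 0, with at most 6 counts in any library. The markers with counts moved with dose in different directions. Mean normalised counts in vehicle, low, medium and high dose were 88412, 95449, 103750 and 108048 for VIM, 56908, 53557, 47455 and 43678 for CD44, 690.1, 591, 359 and 126 for SLC1A3, and 214, 186, 129 and 64.7 for NES. SOX9 had 1434, 1460, 1224 and 1206. Thus VIM had a higher mean at each higher dose, and CD44, SLC1A3 and NES a lower one. The summed level of the list, which is nearly all VIM and CD44, was 144279 to 152078 in vehicle, 149749 to 152817 at the low, 151156 to 156339 at the medium and 152311 to 154029 at the high dose. Whether these markers have a part in the results on the members was not tested. Of 8 intestinal markers, 1 had over 3 counts. Mitochondrial rRNA took 0.913 to 0.96% of counts in vehicle libraries, 3.01 to 3.33% at the low, 7.67 to 8.05% at the medium and 5.76 to 6.06% at the high dose, and so moved with every comparison against vehicle. Refitting without mitochondrially encoded genes left each count of members called the same. In RNA from a whole culture, a change in every cell and a change in the share of cells with a transcript cannot be told apart.

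The upstream sequences of 6 members are printed to show the region before the start of the members described most: INSIG1, MSMO1, SCD, NPC1 and ABCA1 each had the largest high dose rise of its role among members with a promoter entry, and SREBF2 held the sterol regulatory element. They are the 250 bases before the RefSeq transcription start in GRCh38.p14, read 5′ to 3′ on the gene's strand. Capitals mark, on either strand, the sterol regulatory element TCACNCCAC or its short form CACCCCAC, the E-box CACGTG, and the NF-Y motif CCAAT. INSIG1 lies at chr7:155297628-155297877 on the plus strand, MSMO1 at chr4:165327419-165327668 on the plus strand, and SCD at chr10:100346983-100347232 on the plus strand. SREBF2 lies at chr22:41832855-41833104 on the plus strand while NPC1 at chr18:23586507-23586756 and ABCA1 at chr9:104928156-104928405 lie on the minus strand. The NPC1 stretch has none of these letters and so no capitals. GENCODE places these protein-coding genes at chr7:155297776-155310235 (INSIG1), chr4:165327667-165343164 (MSMO1), chr10:100347233-100364826 (SCD), chr22:41833105-41907306 (SREBF2), chr18:23506184-23586506 (NPC1) and chr9:104781006-104928155 (ABCA1) of the same build. The RefSeq starts of INSIG1 and MSMO1 thus lie inside the GENCODE genes, that of MSMO1 by only a few bases. The last part of the INSIG1 stretch, with its CACGTG, is also inside the GENCODE gene.
INSIG1: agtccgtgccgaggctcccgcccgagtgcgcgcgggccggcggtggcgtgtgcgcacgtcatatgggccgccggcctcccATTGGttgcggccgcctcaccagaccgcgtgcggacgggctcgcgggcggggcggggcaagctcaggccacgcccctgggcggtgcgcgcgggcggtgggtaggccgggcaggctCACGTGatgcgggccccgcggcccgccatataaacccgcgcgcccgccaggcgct
MSMO1: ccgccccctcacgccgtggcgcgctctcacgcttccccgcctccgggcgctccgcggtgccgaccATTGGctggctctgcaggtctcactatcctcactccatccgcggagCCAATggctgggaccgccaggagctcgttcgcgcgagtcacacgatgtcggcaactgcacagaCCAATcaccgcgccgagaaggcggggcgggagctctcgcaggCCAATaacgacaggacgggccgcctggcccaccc
SCD: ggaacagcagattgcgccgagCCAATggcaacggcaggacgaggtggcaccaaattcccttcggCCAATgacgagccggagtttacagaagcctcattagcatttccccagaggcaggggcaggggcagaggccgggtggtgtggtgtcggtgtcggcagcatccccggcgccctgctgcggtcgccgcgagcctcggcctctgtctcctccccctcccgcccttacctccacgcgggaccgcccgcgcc
SREBF2: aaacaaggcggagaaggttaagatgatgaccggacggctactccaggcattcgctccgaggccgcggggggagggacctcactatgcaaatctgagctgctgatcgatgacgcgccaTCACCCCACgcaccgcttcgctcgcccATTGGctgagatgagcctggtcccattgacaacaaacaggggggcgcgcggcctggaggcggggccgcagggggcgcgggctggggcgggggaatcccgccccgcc
NPC1: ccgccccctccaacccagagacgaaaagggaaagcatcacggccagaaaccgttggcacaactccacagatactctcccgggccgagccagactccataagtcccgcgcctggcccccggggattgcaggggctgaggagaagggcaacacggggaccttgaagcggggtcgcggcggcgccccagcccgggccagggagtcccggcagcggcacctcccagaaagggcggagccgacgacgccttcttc
ABCA1: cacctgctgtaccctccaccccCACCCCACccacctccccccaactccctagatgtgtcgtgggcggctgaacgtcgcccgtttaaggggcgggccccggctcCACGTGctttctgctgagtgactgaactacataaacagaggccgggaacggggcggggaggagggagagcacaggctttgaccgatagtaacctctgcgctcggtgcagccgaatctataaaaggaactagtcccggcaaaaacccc

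Windows from 250 bases before to 50 after the RefSeq start were held for 30 of the 35 members. ACAT2, FDFT1, SQLE, ABCG1 and FASN had no entry. A RefSeq start is not always the start of the gene model used here. The IDI1 window lies upstream of the GENCODE gene, and some, such as those of FADS1, FADS2 and DHCR7, lie wholly inside it. Both strands were searched. CCAAT, the letters bound by NF-Y, a known partner of SREBP, was in 17 of the 30 windows (56.7%), against 34.6% of all 35116 windows of the same length. Of those 17, 12 were sterol synthesis genes. That role holds 19 of the 35 members, of which ACAT2, FDFT1 and SQLE had no window. The Sp1 letters GGGCGG were in 27 windows (90%, against 45% of all), and the E-box was in 5 (16.7%, against 7.26%). The long sterol element was in 1 member window, that of SREBF2 at 133 bases before the start (3.33%, against 1.13%), where it also holds the short form. The short form was in 2 member windows, SREBF2 and ABCA1 (6.67%, against 2.79%). All windows of that length were used for the shares, with no selection by gene type or expression, so they are not matched to the members. These matches are descriptions of letters in a window, not of binding.

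**Figure D1:**
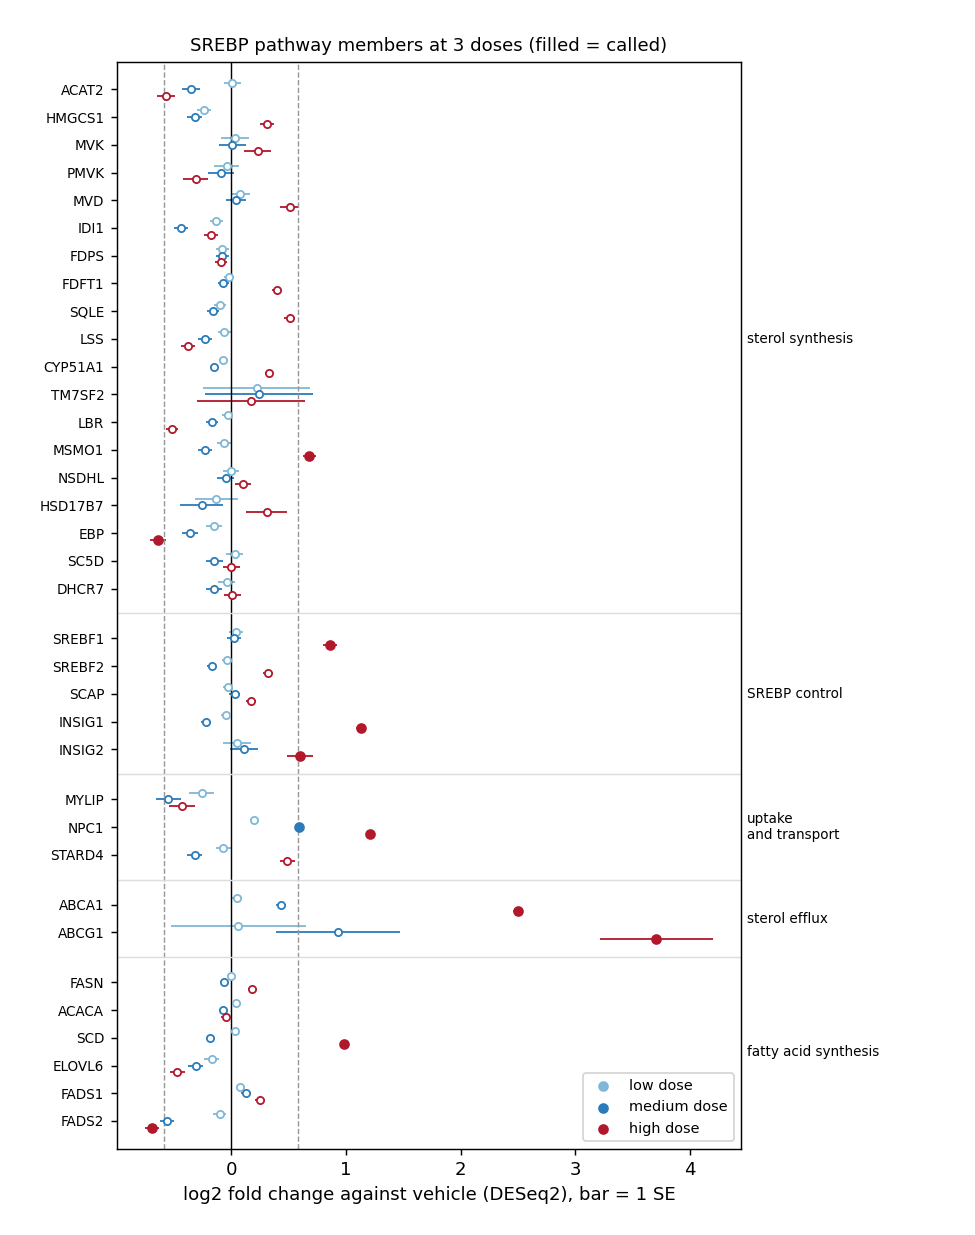
DESeq2 log2 fold change against vehicle (x axis) for the 35 members (y axis, by role) at the low, medium and high dose, with bars of 1 SE, filled points for called genes and dashed lines at a fold change of 1.5. At the high dose ABCG1 (3.71) and ABCA1 (2.50) lie farthest to the right and FADS2 (-0.69) farthest to the left, and at the medium dose most points lie left of 0.

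At the high dose 10 of the 35 members were called, 8 higher and 2 lower than vehicle. Called means a DESeq2 adjusted p under 0.05 and a fold change over 1.5. The 8 were MSMO1, SREBF1, INSIG1, INSIG2, NPC1, ABCA1, ABCG1 and SCD, and the 2 were EBP and FADS2. That is 28.6% of members, against 18.2% of all genes tested. By direction it was 22.9% higher and 5.71% lower, against 8.66% and 9.57% of all genes tested. By adjusted p alone 27 members differed (77.1%, against 46.5%), 18 higher (51.4%, against 23.9%) and 9 lower (25.7%, against 22.6%). At a mean of 100 or more normalised counts, a limit chosen after the values were seen, 26 of 33 members differed (78.8%), against 67.3% of all such genes. The median log2 fold change of the members was 0.23, beside -0.010 over all genes tested.

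The medium dose gave another picture, with small decreases in many synthesis genes. NPC1 alone was called (2.86% of members, against 3.81% of all genes tested), so the count called was near the background. By adjusted p alone 19 members differed (54.3%, against 29.5%), of which 3 were higher (NPC1, ABCA1 and FADS1; 8.57%, against 15.1%) and 16 lower (45.7%, against 14.5%). Above that mean the figures were 19 of 33 members (57.6%) against 34.6%. The median log2 fold change of the members was -0.15, beside -0.001 over all genes tested. None of the 16 lower members reached a fold change of 1.5, and the largest decreases were those of FADS2 (-0.56) and MYLIP (-0.55).

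At the low dose none of the 30 members with an adjusted p was called by DESeq2, against 0.118% of all genes tested, and edgeR also called 0. The adjusted p alone passed for NPC1, which was higher, and HMGCS1, which was lower (6.67%, against 3.29%). Unadjusted p was under 0.05 for 7 of the 35 members, and the share of all genes under that limit was not counted. ABCG1, MVK, TM7SF2, HSD17B7 and MYLIP had means too low for an adjusted p at this dose. A likelihood ratio test in DESeq2 over all 4 groups found differences in 28 of the 35 members, against 45.8% of all genes tested. The 7 that did not pass were MVK, PMVK, FDPS, TM7SF2, NSDHL, SC5D and DHCR7.

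**Figure D2:**
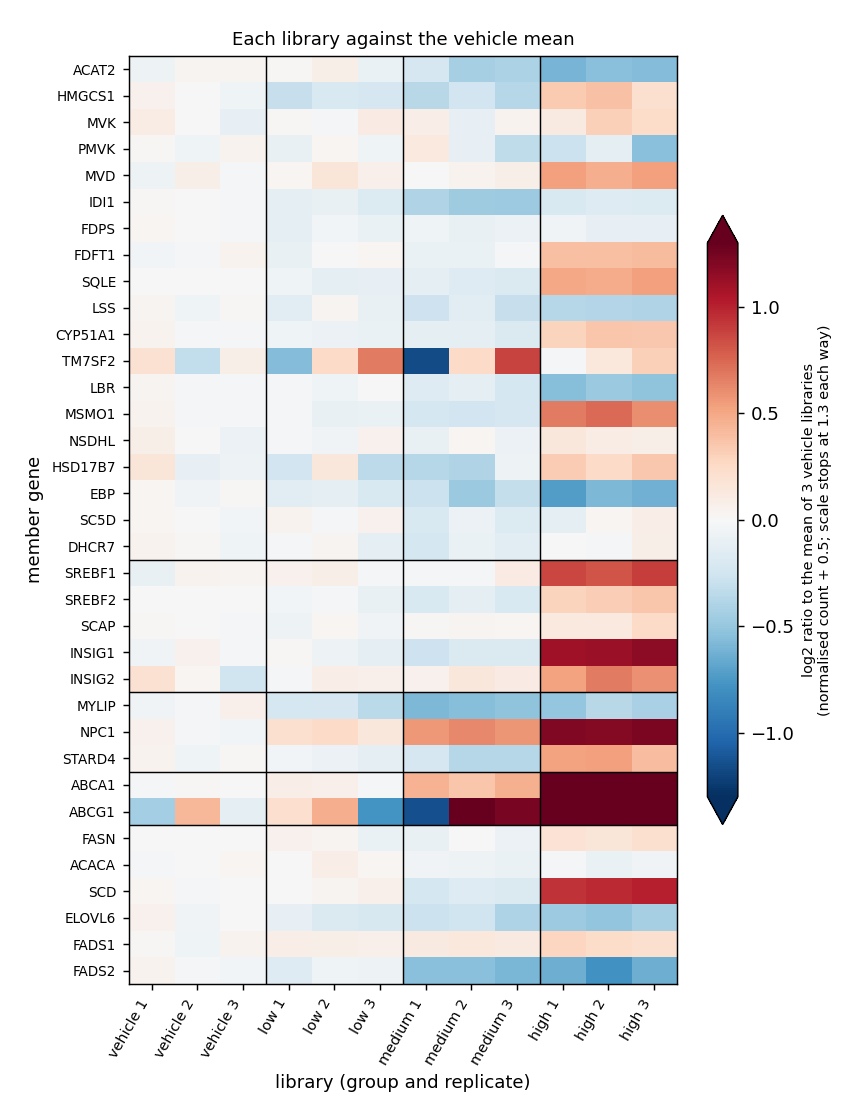
Log2 ratio of each library's normalised count (0.5 added) to the vehicle mean, for the 35 members (rows, in role order) in the 12 libraries (columns); red is higher and blue lower, and the scale stops at 1.3 each way. ABCA1, INSIG1, NPC1, SCD and SREBF1 are red in all 3 high dose libraries, and the medium dose columns are mostly pale blue.

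Of the SREBP control genes, all 5 were higher at the high dose by adjusted p (all genes: 23.9%), and 3 were called (all genes: 8.66% called higher). Their median log2 fold change was 0.60 at the high, 0.02 at the medium and -0.03 at the low dose. INSIG1, the retention factor that is itself a known SREBP target, moved most. Its normalised counts were 2566, 2755 and 2631 in the vehicle libraries, 2688, 2534 and 2443 at the low dose, 2199, 2319 and 2320 at the medium dose and 5696, 5776 and 5917 at the high dose. The 3 high dose libraries stood above all others, and the 3 medium dose libraries lay below all vehicle libraries. The DESeq2 log2 fold change was 1.13 ± 0.040 (SE) at the high dose (2.19-fold, adjusted p = 1.12e-169) and -0.22 at the medium dose (adjusted p = 4.05e-06), so INSIG1 fell and then rose as the dose grew.

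SREBF1, which encodes SREBP1, was level until the high dose. It had 908, 1002 and 996 normalised counts in vehicle, 1007, 1024 and 957 at the low, 959.8, 951 and 1042 at the medium and 1765, 1707 and 1805 at the high dose. The first 3 groups overlapped, and the high dose libraries did not overlap with any of them. At the high dose the log2 fold change was 0.86 ± 0.058 (SE; 1.81-fold, DESeq2 adjusted p = 8.58e-48), beside 0.02 at the medium dose (adjusted p = 0.827). Counts per gene do not separate the SREBP1a and SREBP1c transcripts.

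SREBF2, which encodes SREBP2 and carries the sterol element printed above, followed INSIG1 in direction with smaller steps. Vehicle libraries had 1821, 1832 and 1810, low dose libraries 1781, 1808 and 1708, medium dose libraries 1587, 1669 and 1582 and high dose libraries 2227, 2269 and 2335 normalised counts. The medium dose libraries were the lowest and the high dose libraries the highest, without overlap with vehicle. The log2 fold change was 0.32 ± 0.044 (SE) at the high dose (DESeq2 adjusted p = 1.21e-12) and -0.17 ± 0.045 at the medium dose (adjusted p = 0.000814), neither past a fold change of 1.5. Of its exon bases, 9.1% overlap genes on the opposite strand.

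INSIG2, the second retention factor, had 306, 269.8 and 222 normalised counts in vehicle, 264, 282 and 279 at the low, 277, 295 and 286 at the medium and 382, 424 and 400.3 at the high dose. The high dose libraries lay above the rest, but vehicle was spread. The high dose value of 0.60 ± 0.11 (log2, SE; DESeq2 adjusted p = 4.25e-07) sits just past the fold limit, and it was 0.49 without vehicle replicate 3 and 0.56 without high dose replicate 2, where the gene was no longer called. SCAP, the escort protein, changed least of the 5, with 1922, 1901 and 1882 in vehicle, 1822, 1937 and 1840 at the low, 1923, 1948 and 1937 at the medium and 2070, 2079 and 2256 normalised counts at the high dose. The high dose libraries were above the others, and the log2 fold change against vehicle was 0.17 ± 0.046 (SE, DESeq2 adjusted p = 0.000719).

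**Figure D3:**
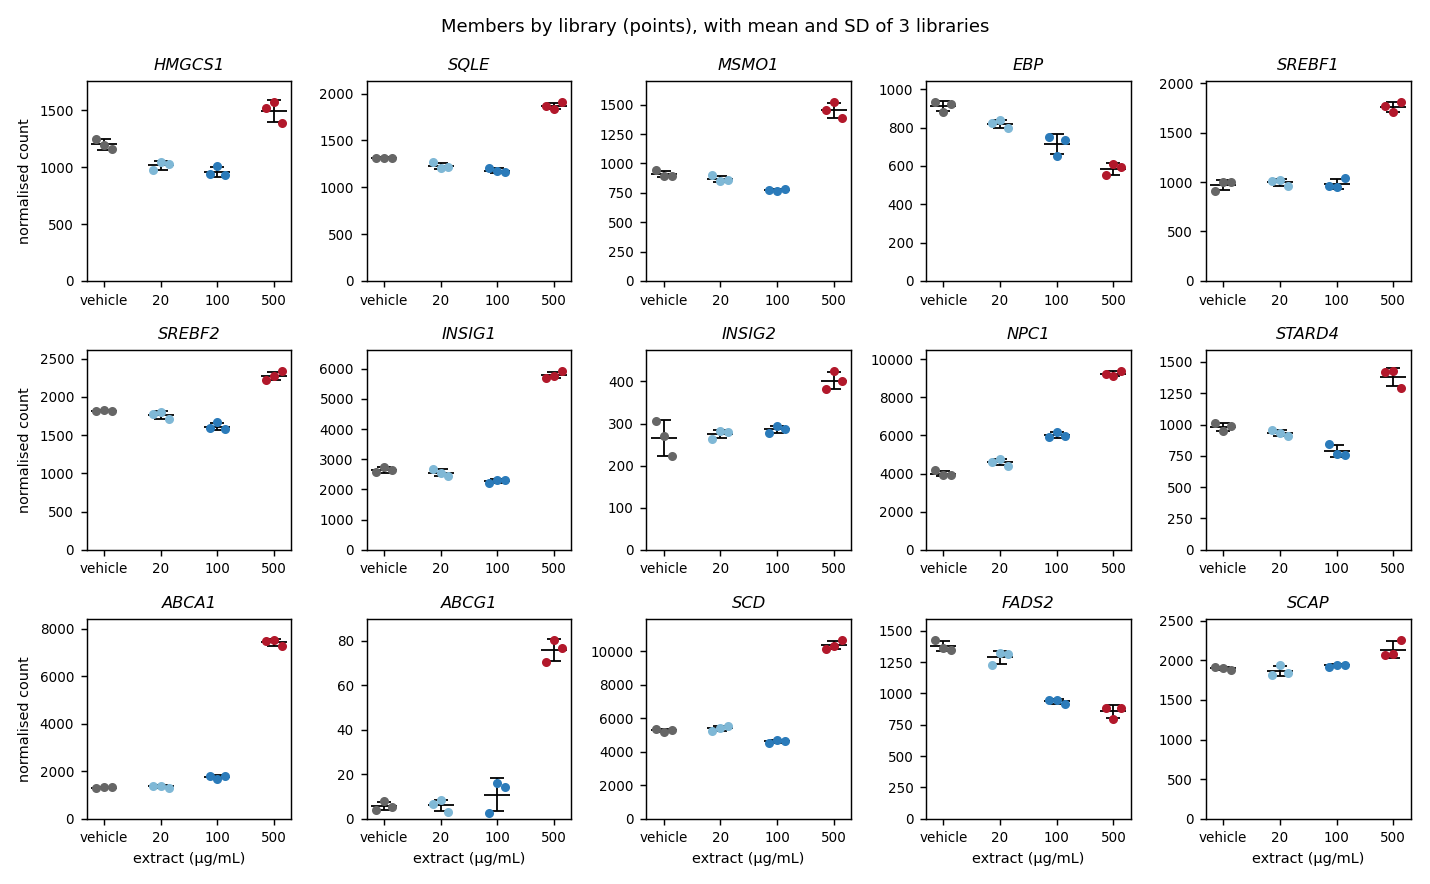
Normalised counts (y axis, from 0) of 15 members in each library against the dose of extract in µg/mL (x axis), with the mean and SD of 3 libraries. The mean of NPC1 climbs at each dose, those of HMGCS1, STARD4, INSIG1 and SCD are lowest at 100 and highest at 500 µg/mL, and those of EBP and FADS2 are lowest at 500 µg/mL.

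The sterol synthesis enzymes did not move as a block at the high dose. Of 19, 1 was called higher (MSMO1) and 1 lower (EBP), which is 10.5%, against 18.2% of all genes tested. Without the fold limit 6 were higher, 6 lower and 7 did not pass, where 23.9% of all genes were higher and 22.6% lower. Their log2 fold changes ran from -0.64 to 0.68 with a median of 0.10, which was 0.02 without vehicle replicate 2. At the medium dose 9 were lower by adjusted p, 0 higher and 10 did not pass, where 14.5% of all genes were lower and 15.1% higher. The median was -0.15 and the range from -0.44 to 0.24. At the low dose the median was -0.04 and HMGCS1 alone passed.

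MSMO1, a methylsterol oxidase that removes methyl groups from the sterol ring, rose most. It had 941, 894 and 892 normalised counts in vehicle, 901, 852 and 857 at the low, 774, 765 and 780.2 at the medium and 1451, 1519 and 1387 at the high dose. The medium dose libraries were the lowest and the high dose libraries the highest of the 12. The log2 fold change was 0.68 ± 0.058 (SE; 1.60-fold, DESeq2 adjusted p = 8.90e-30) at the high dose and -0.23 ± 0.062 (adjusted p = 0.00116) at the medium dose.

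SQLE, the squalene epoxidase, which is a rate-limiting enzyme of the pathway, had 1316, 1312 and 1317 normalised counts in vehicle, 1266, 1201 and 1220 at the low, 1208, 1169 and 1158 at the medium and 1867, 1834 and 1905 at the high dose. The high dose libraries stood apart above the rest, and the low and medium dose libraries were all below vehicle. At the high dose it was higher by 0.51 ± 0.048 (log2, SE; DESeq2 adjusted p = 4.74e-25) and at the medium dose lower (-0.16, adjusted p = 0.00747). HMGCS1, the synthase that makes HMG-CoA from acetoacetyl-CoA, had 1249, 1197 and 1157 in vehicle, 973, 1046 and 1032 at the low, 938, 1011 and 931 at the medium and 1520, 1569 and 1385 normalised counts at the high dose. Every low and medium dose library was below every vehicle library, and every high dose library above. HMGCS1 differed from vehicle by -0.24 (log2, adjusted p = 0.00696) at the low, -0.32 (adjusted p = 3.48e-06) at the medium and 0.31 (adjusted p = 1.17e-06) at the high dose. Of the HMGCS1 exon bases, 37.7% overlap a gene on the opposite strand, and whether the counting used strand is not stated.

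MVD, FDFT1 and CYP51A1 were also higher at the high dose by adjusted p alone, with log2 fold changes of 0.51, 0.40 and 0.33. MVD makes isopentenyl pyrophosphate, FDFT1 joins farnesyl units into squalene, and CYP51A1 demethylates lanosterol. CYP51A1 was lower at the medium dose (-0.15, adjusted p = 0.000729), and 68.2% of its exon bases are shared with other gene models on its strand.

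EBP, the sterol isomerase of the late pathway, went the other way from MSMO1. Its normalised counts were 931, 881 and 925 in vehicle, 822, 840.5 and 798 at the low, 750.0, 652 and 736 at the medium and 551, 609.9 and 592 at the high dose. The 4 groups did not overlap and each dose lay below the last. EBP differed from vehicle by a log2 value of -0.15 at the low dose (DESeq2 adjusted p = 0.276), -0.36 ± 0.070 (SE, adjusted p = 4.28e-06) at the medium and -0.64 ± 0.072 (adjusted p = 4.43e-18) at the high dose. Another gene model on its strand covers 36.4% of its exon bases.

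Lower at the high dose by adjusted p alone were ACAT2 (-0.57), LBR (-0.52), LSS (-0.38), PMVK (-0.31) and IDI1 (-0.18). ACAT2 makes acetoacetyl-CoA at the start of the pathway, LSS closes the sterol rings, and LBR, an inner nuclear membrane protein, is also a sterol reductase. IDI1, the isomerase of isoprenoid units, was lowest at the medium dose, with a mean of 990.0 ± 13.1 (SD, n = 3) normalised counts in vehicle, 730.1 ± 22.5 at the medium and 872 ± 9.48 at the high dose. Genes on the other strand overlap 22.2% of the exon bases of ACAT2, 15.0% of IDI1 and 18.6% of FDPS.

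NPC1, which passes cholesterol out of late endosomes, was higher than vehicle at each dose by adjusted p. HMGCS1 also differed at each dose, but not in 1 direction. NPC1 had 4159, 3936 and 3900 normalised counts in vehicle and 4620, 4746 and 4421 at the low dose. It had 5910, 6173 and 5952 at the medium and 9231, 9116 and 9362 at the high dose. No 2 groups overlapped. Against vehicle NPC1 differed by a log2 value of 0.20 ± 0.034 (SE, DESeq2 adjusted p = 1.20e-06) at the low, 0.59 ± 0.034 (adjusted p = 3.39e-65) at the medium and 1.21 ± 0.033 (2.31-fold, adjusted p = 1.24e-285) at the high dose. The medium dose value lies at the fold limit: it was 0.58 without vehicle replicate 2, 0.57 without vehicle replicate 3 and 0.57 without medium dose replicate 2, and was not called there.

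STARD4, a soluble sterol carrier and known SREBP target, had 1011, 946 and 989.7 normalised counts in vehicle, 959, 931 and 909 at the low, 842, 761 and 759 at the medium and 1416, 1425 and 1294 at the high dose. As with MSMO1, the medium dose libraries were the lowest and the high dose libraries the highest. Its log2 fold change was -0.32 ± 0.065 (SE, DESeq2 adjusted p = 7.83e-06) at the medium and 0.49 ± 0.062 (adjusted p = 1.74e-14) at the high dose. MYLIP, a ubiquitin ligase for lipoprotein receptors and a known LXR target, was lower at the medium dose (-0.55, adjusted p = 6.26e-06) and at the high dose (-0.43, adjusted p = 0.000296), with means of 315 ± 12.6 (SD, n = 3) in vehicle, 215 ± 4.89 at the medium and 234 ± 11.8 normalised counts at the high dose.

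Both efflux transporters rose at the high dose, and by more than any other member in fitted fold change. ABCA1, which loads cholesterol onto apolipoproteins, had 1291, 1322 and 1319 normalised counts in vehicle, 1393, 1375 and 1300 at the low, 1797, 1688 and 1803 at the medium and 7468, 7516 and 7274 at the high dose. Low dose libraries overlapped with vehicle, medium dose libraries lay above, and high dose libraries stood far from the rest. ABCA1 differed from vehicle by a log2 value of 0.43 ± 0.044 (SE, DESeq2 adjusted p = 2.30e-20) at the medium and 2.50 ± 0.041 (5.66-fold, with an adjusted p that DESeq2 returned as 0, below the smallest number it can hold) at the high dose.

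ABCG1, a transporter to lipoprotein particles, had few counts below the high dose. It had 4.10, 7.88 and 5.20 normalised counts in vehicle, 6.73, 8.16 and 3.14 at the low, 2.32, 15.8 and 14.1 at the medium and 70.6, 80.2 and 76.7 at the high dose. The high dose libraries were far above the others, and 2 of the 3 medium dose libraries were above vehicle while the third was below. High dose against vehicle, the fitted log2 change was 3.71 ± 0.49 (SE, 95% interval 2.75 to 4.67, DESeq2 adjusted p = 2.51e-13), on raw counts of 2 to 89 over the 12 libraries. At the medium dose the value of 0.93 did not pass (adjusted p = 0.197), and it was called without medium dose replicate 1.

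Fatty acid synthesis genes were as mixed as the sterol enzymes at the high dose: of 6, 3 were higher, 2 lower and 1 did not pass by adjusted p (all genes: 23.9% higher, 22.6% lower), with a median log2 fold change of 0.07, and -0.13 at the medium dose. SCD, the desaturase that makes oleic acid, rose most. It had 5352, 5194 and 5270 normalised counts in vehicle, 5247, 5408 and 5530 at the low, 4489, 4710 and 4637 at the medium and 10146, 10315 and 10658 at the high dose. All medium dose libraries were below all others, and all high dose libraries above. The log2 change of SCD was -0.19 ± 0.032 (SE, DESeq2 adjusted p = 2.52e-08) at the medium and 0.98 ± 0.030 (1.97-fold, adjusted p = 2.83e-225) at the high dose.

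FADS2, the desaturase that starts the making of long polyunsaturated fatty acids, fell with dose. Its normalised counts were 1426, 1364 and 1346 in vehicle, 1231, 1326 and 1314 at the low, 947, 949 and 916 at the medium and 888, 798 and 886 at the high dose. Medium and high dose libraries were all below vehicle and low dose libraries. The log2 fold change was -0.56 ± 0.059 (SE, DESeq2 adjusted p = 2.31e-19) at the medium and -0.69 ± 0.060 (adjusted p = 1.67e-29) at the high dose. FADS1, its neighbour and the next desaturase in the same route, was higher, by 0.13 (adjusted p = 0.0106) at the medium and 0.25 (adjusted p = 1.47e-08) at the high dose, with 4.8% of its exon bases shared with FADS2 on the opposite strand. FASN, the fatty acid synthase, was higher at the high dose (0.18, adjusted p = 6.50e-07) and ELOVL6, an elongase, was lower (-0.47, adjusted p = 1.31e-11). ACACA, which makes malonyl-CoA, had a value of -0.05 (adjusted p = 0.279).

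Set directly against the medium dose, the high dose raised 10 of 35 members and lowered 0 past the call (28.6%, against 10.2% of all genes tested and 4.58% called higher). The 10 were HMGCS1, SQLE, MSMO1, SREBF1, INSIG1, NPC1, STARD4, ABCA1, ABCG1 and SCD. By adjusted p alone 25 differed (71.4%, against 40.9%), 20 higher (57.1%, against 21.1%) and 5 lower (14.3%, against 19.8%). The log2 fold changes of the 10 were 2.78 for ABCG1, 2.07 for ABCA1, 1.35 for INSIG1, 1.17 for SCD, 0.91 for MSMO1, 0.84 for SREBF1, 0.81 for STARD4, 0.67 for SQLE, 0.63 for HMGCS1 and 0.62 for NPC1. HMGCS1, SQLE and STARD4 were not called against vehicle, and their medium dose means lay below it. The 5 that were lower at the high dose were LBR (-0.34), EBP (-0.28), ACAT2 (-0.22), ELOVL6 (-0.16) and LSS (-0.15).

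Between the medium and the low dose, DESeq2 and edgeR each called 0 members, against 1.94% of all genes tested by DESeq2. By adjusted p alone 14 differed (40.0%, against 18.9%), NPC1 and ABCA1 higher and 12 lower (34.3%, against 9.58%). An unadjusted p under 0.05 was found for 17, without a count over all genes to set beside it. The largest decreases were those of FADS2 (-0.46), ACAT2 (-0.36) and IDI1 (-0.31), and SCD, STARD4 and INSIG1 were lower by 0.23, 0.25 and 0.16 on the log2 scale.

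Levels of different members can be set side by side per length of transcript (normalised counts per kb of the Ensembl canonical transcript). In vehicle the order began with SCD (1005 ± 15.0, SD, n = 3), CYP51A1 (993 ± 29.6), INSIG1 (912 ± 33.1), FDFT1 (863 ± 25.9) and NPC1 (840.0 ± 29.5). The library ranges of SCD and CYP51A1 overlapped, as did those of INSIG1 and FDFT1 and of FDFT1 and NPC1. The least expressed were TM7SF2 (11.9 ± 2.18), a sterol reductase, and ABCG1 (1.93 ± 0.654). At the high dose INSIG1 (1993 ± 38.5), SCD (1978 ± 49.8) and NPC1 (1940 ± 25.9) led with overlapping ranges, ahead of CYP51A1 (1250 ± 33.0), and the level of ABCA1 was 713 ± 12.3, from 126 ± 1.63 in vehicle.

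Another 42 genes of lipid metabolism around the pathway, were also listed by role. Of 41 tested at the high dose 6 were called (14.6%, below the 18.2% of all genes), 3 each way. By adjusted p alone 29 differed (70.7%, against 46.5% of all genes), 18 higher (43.9%, against 23.9%) and 11 lower (26.8%, against 22.6%), and 12 did not pass. MID1IP1, an activator of acetyl-CoA carboxylase, rose most, from 1036 ± 49.0 (SD, n = 3) normalised counts in vehicle to 1436 ± 63.2 at the medium and 2060 ± 41.3 at the high dose (log2 fold change 0.99, DESeq2 adjusted p = 4.81e-77). OSBP, an oxysterol-binding lipid carrier, went from 1932 ± 57.6 to 3234 ± 104 (0.74, adjusted p = 2.04e-61), and LPIN2, a phosphatidate phosphatase, from 908 ± 67.5 to 1372 ± 30.6 (0.60, adjusted p = 8.75e-22). These 3 were the genes called higher.

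Those called lower at the high dose were PDSS1, GPAM and TMEM97. PDSS1, for the side chain of coenzyme Q, went from 172 ± 6.06 (SD, n = 3) normalised counts in vehicle to 100.4 ± 10.6 (-0.77, DESeq2 adjusted p = 8.52e-06). TMEM97, a membrane protein that binds NPC1, went from 710.4 ± 25.1 to 435 ± 30.0 (-0.71, adjusted p = 3.88e-19), and GPAM, which starts glycerolipid synthesis, from 1710 ± 70.2 to 1072 ± 74.4 (-0.68, adjusted p = 1.39e-34). Among the oxysterol and LXR genes NR1H2, which encodes LXRβ, was higher by 0.56 (adjusted p = 1.42e-12), under the fold limit. The other 3 tested did not pass, and a gene on the opposite strand overlaps 22.1% of the NR1H2 exon bases. At the medium dose DESeq2 and edgeR called 0 of these genes, against 3.81% of all genes tested by DESeq2. By adjusted p alone 15 of 40 differed there (37.5%, against 29.5%), with 20.0% higher (against 15.1%) and 17.5% lower (against 14.5%). At the low dose both tests called 0, against 0.118%, and 2.86% passed by adjusted p alone, against 3.29%. Unadjusted p was under 0.05 for 19 at the medium and 4 at the low dose, with no share of all genes counted. High against medium dose, OSBP (0.64) and ACSL3 (0.62), an acyl-CoA synthetase of lipid droplets, were called higher. That is 5.00% of those tested, near the 4.58% of all genes tested that were called higher.

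**Figure D4:**
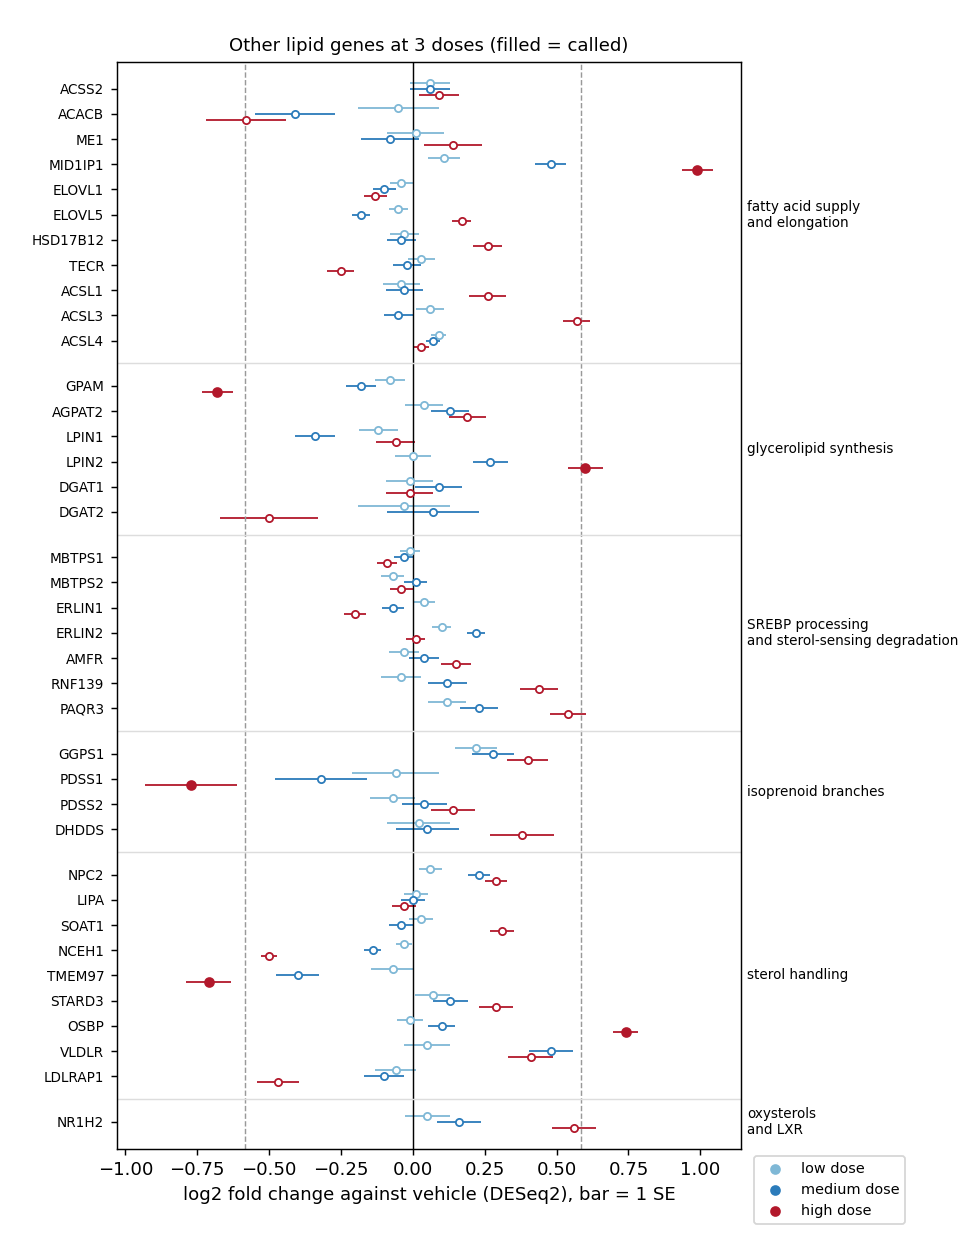
DESeq2 log2 fold change against vehicle (x axis) of the lipid genes around the pathway (y axis, by role) at the low, medium and high dose, with bars of 1 SE, filled points for called genes and dashed lines at a fold change of 1.5; CH25H, CYP7B1, CYP27A1 and NR1H3, with means under 100 normalised counts, are not drawn. MID1IP1 (0.99) lies farthest to the right and PDSS1 (-0.77) farthest to the left.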

How the data were processed

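The authors made directional mRNA libraries from SW1783 cells in 4 groups of 3, sequenced them as paired ends, and, by the submitters' processing notes, used FastQC 0.11.9, Trim Galore 0.6.5, STAR 2.7.3a and RSEM 1.3.3 on GRCh38. The study's methods give other versions of some tools. The deposited values are expected counts from RSEM, in which reads that match several genes are split among them. They were rounded here, and no column was left unmatched to a library. Whether RSEM used strand is not stated. Symbols and coordinates came from GENCODE v44 (GRCh38), which held 93.2% of the identifiers and 99.9% of the counts.

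In R 4.3.3, DESeq2 1.42.0 (two-sided Wald test, after the authors' methods) was fitted to all genes over the 12 libraries on group alone, with Benjamini-Hochberg adjustment over all genes tested. A gene was called at an adjusted p under 0.05 with a fold change over 1.5. Independent filtering left genes with a mean under 1.72 (high dose), 18.3 (medium) or 263 (low) unadjusted. All 4 groups were also compared by likelihood ratio. Normalised counts are counts over DESeq2 size factors. Alternatives were edgeR 4.0.16 (quasi-likelihood test), TMM factors, a low-count filter, fits without mitochondrially encoded genes, of 2 groups only, with the replicate number as a block, without independent filtering, with adjusted p alone, with a test against the fold limit, and without each library. Scripts were tested on simulated data.

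Replicate pairs differed by a chi-square of 2.06 to 3.77 per degree of freedom, more than counting noise, so all 12 libraries were kept. Nothing says that they came from separate cultures, so p-values measure the spread between these samples, which may be technical. The median standard error of the members' high dose log2 fold changes was 0.0597. Same-numbered libraries of the medium and low dose deviated together (correlations of 0.124 to 0.193 in all 3 pairs), so the replicate numbers may pair them; the replicate block called 0 members there too.

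Members and companion lists were chosen with earlier results of these data known. Library values are given for members called at any dose or between high and medium dose and for the 5 control genes. Other members are named by their test results or by rank, companions where called, and NR1H2 for its role. Some genes of the pathway are not analysed here.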

Additional observations from a re-analysis of the deposited data

How the results depend on the processing

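The counts of members called (10 at the high, 1 at the medium and 0 at the low dose, 10 for high against medium and 0 for medium against low) were the same with edgeR, TMM factors, a low-count filter, without mitochondrially encoded genes, without independent filtering, in fits of only the groups compared, and with the replicate block. By adjusted p alone they were 27, 19, 2, 25 and 14, since the fold limit is dropped. A test against the fold limit itself gave 6 at the high dose, 0 at the medium and 7 for high against medium. There MSMO1, EBP, INSIG2 and FADS2 at the high dose and NPC1 at the medium dose were no longer called. The same held for HMGCS1, SQLE and NPC1 for high against medium. The share of all genes that passed this test was not counted, so these counts have no background beside them. Leaving out 1 library at a time gave 9 to 11 members at the high dose, 0 to 2 at the medium, 0 at the low, 10 to 11 for high against medium and 0 for medium against low. At the medium dose the count was 0 without vehicle replicate 2, vehicle replicate 3 or medium dose replicate 2, and 2 (NPC1 and ABCG1) without medium dose replicate 1. The median log2 fold change of sterol synthesis members at the high dose ranged from 0.02 (without vehicle replicate 2) to 0.14, around 0.10.

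The likelihood ratio test found 28 members, 31 with edgeR and 26 with the replicate block. Of 315 values of 21 gene results under the alternatives, 302 kept their call and direction, 13 lost the call and 0 changed sign. Against vehicle, same-numbered libraries did not deviate together (correlations of -0.118 to -0.00687). For high and medium dose the same-numbered correlations were 0.0551, 0.0355 and 0.221. High dose replicate 2 matched medium dose replicate 1 better (0.0981), so whether the numbers pair these libraries is not settled. The replicate block left the counts called against vehicle and between high and medium dose the same. TM7SF2 had few counts in every group and ABCG1 few below the high dose, which limits what can be said of them there.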
